A study of Mus musculus with 22 samples.

Results

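H/ACA small nucleolar RNAs (snoRNAs) were compared directly between RAW264.7, a mouse macrophage line, and NIH3T3, a mouse embryonic fibroblast line. Members were the 3 samples titled RAW and the 3 titled NIH3T3, 6 of the 22 samples of the series. No treatment is named for either line, and both are established lines grown in culture, so each line stands for itself rather than for macrophages or fibroblasts of an animal. Total RNA was hybridised to a custom nCounter code set, which counts colour-coded probes on single RNA molecules without amplification. The other 16 samples enter here only as reference levels and form 5 groups: spermatogonial stem cells (n = 4), aMHC-puro embryonic stem cells at day 0 and the cardiomyocytes made from them and selected with puromycin at day 16 (n = 3 each), and another 2 sets of embryonic stem cells (n = 3 each). Set A is titled as retinoic acid (RA) cells but described as untreated, and set B is titled ESC but described as RA-treated, so the treatment of these sets is not settled here. The code set as deposited holds 72 snoRNA features and no protein-coding marker gene, so the cell identity of either line could not be checked against its defining markers.

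H/ACA snoRNAs fold into hairpins whose internal pockets pair with a target RNA and place 1 uridine for conversion to pseudouridine by dyskerin, the enzyme of the particle. In mammals most of them are cut from introns of host genes, among them ribosomal protein genes and the non-coding small nucleolar RNA host genes (Snhg), so a snoRNA is made together with the transcript that carries it. A few, such as U17 (Snora73a) and U19 (Snora74a), are known for a part in cleavage of the ribosomal RNA precursor. Target assignments used below (18S ribosomal RNA of the small subunit, 28S of the large) are general knowledge of the human homologues, were not checked against sequence, and are uncertain for Snora75, Snora43, Snora23, Snora16a, Snora34, Snora41 and Snora5c. Several of these snoRNAs can serve both subunits.

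Of the 72 features, 67 had a value in all 6 samples, and 5 were blank in these columns. A gene symbol was matched for 33 of the 67, and all 33 lie inside another gene, their host. The other 34 carry transcript IDs without a symbol in the reference table. Values are normalized counts as deposited. They summed to between 1325259 and 1470989 per NIH3T3 sample and between 1404596 and 1533705 per RAW264.7 sample, a ratio of 1.06 that did not pass an exact two-sided permutation test (p = 0.3; the smallest p that 3 against 3 allows is 0.1). The median SD over features was alike in both lines, at 0.14 in NIH3T3 and 0.15 in RAW264.7 on the log2 scale. More single features spread widely in RAW264.7 than in NIH3T3.

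RAW264.7 sample 1 stood apart from the other 2 of its line. In that sample 13 of 67 features lay more than 0.5 log2 units from the mean of samples 2 and 3, of which 11 lay above it. The same count was 9 for RAW264.7 sample 3, all below the mean of the other 2, and 3 for RAW264.7 sample 2. For NIH3T3 samples 1, 2 and 3 it was 3, 0 and 0. The named snoRNAs that were high in RAW264.7 sample 1 were Snora41, Snora65, Snora3, Snora64, Snora69 and Snora33. Snora41 was 2.73-fold and Snora65 1.91-fold above the other 2 samples. All 6 are hosted in ribosomal protein genes or in Eef1b2, a translation elongation factor gene. Among the 15 named snoRNAs with a ribosomal protein or translation factor host, 6 were above this limit in that sample, and of the 18 with another host 0 were. Snora36b (0.49) and Snora34 (0.41), with other hosts, lay under the limit but not far from it. The rest of the 11 have no symbol and no known host, among them ENSMUST00000083348 (3.27-fold) and ENSMUST00000083155 (2.53-fold). In RAW264.7 sample 3, 5 of the 15 lay more than 0.5 log2 units below the other 2 samples, and 0 of the 18 did. These were Snora41, Snora64, Snora65, Snora69 and Snora81, all but Snora81 also high in sample 1. By this measure the 3 deviations of a feature add up to 0. A feature high in sample 1 is thus low in the other samples, and sample 3 gives no separate observation of the grouping. In RAW264.7 sample 1, Snora24 and Snora75, with hosts outside these classes, lay more than 0.5 log2 units below the other 2 samples. This grouping was noticed after the values were seen, and what sets sample 1 apart was not tested.

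**Figure D1:**
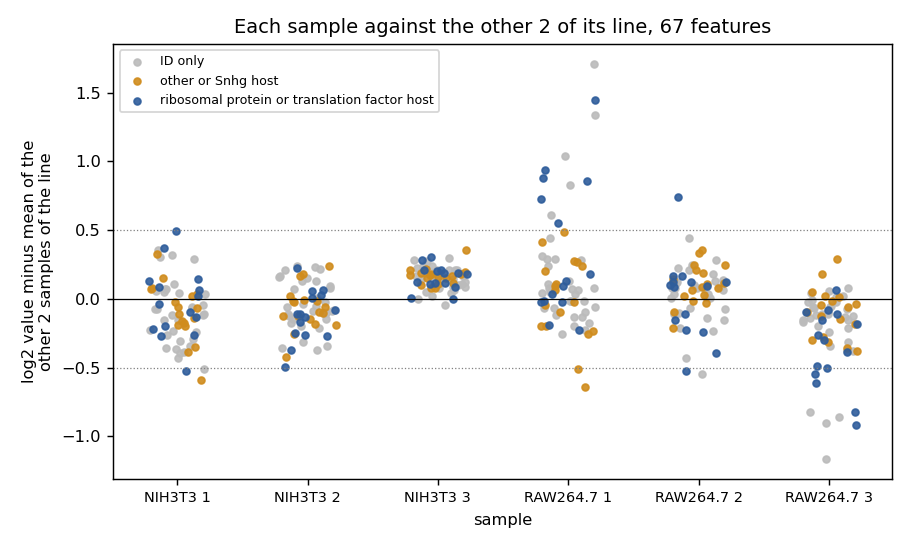
Each point is 1 of 67 features; the vertical axis gives its log2 value in a sample minus the mean log2 value of the other 2 samples of the same line, and dotted lines mark 0.5 above and below 0. RAW264.7 sample 1 has 11 features above the upper line, 6 of them hosted in ribosomal protein or translation factor genes, and NIH3T3 samples 2 and 3 have none beyond either line.

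The direct comparison asked which snoRNAs differ between these somatic lines. Of the 67 features 38 differed (56.7% of features; limma, Benjamini-Hochberg adjusted p under 0.05 on log2(value + 1)), 30 higher in RAW264.7 (44.8%) and 8 lower (11.9%). In all 38 the 3 samples of one line lay beyond the 3 of the other. Without overlap between lines were 43 features (64.2%), 34 higher in RAW264.7 (50.7%) and 9 lower (13.4%). Thus 5 more separated without passing the test, among them Snora24, Snora44 and Snora3. In 10 features the rise was at least 2-fold, while the decreases ran from 0.43 to 0.94 log2 units. In bulk RNA, fewer cells with a snoRNA and less of it per cell cannot be told apart.

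Features without a symbol contributed most of the rises. Of the 33 named snoRNAs 11 were higher in RAW264.7 and 6 lower, with a median log2 difference of 0.05, and of the 34 ID-only features 19 were higher and 2 lower, with a median of 0.44. The largest rises among the latter were those of ENSMUST00000104426, at 722, 954 and 908 normalized counts in NIH3T3 samples 1 to 3 and 2882, 2588 and 2692 in RAW264.7 samples 1 to 3 (3.18-fold, limma adjusted p 3.4e-05), and of ENSMUST00000083061 (3.00-fold, limma adjusted p 1.6e-05). ENSMUST00000082493 and ENSMUST00000083703 were 1.66-fold and 1.58-fold lower.

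The direction of the whole comparison depends on scaling. As deposited, the median feature was higher in RAW264.7 by 0.34 on the log2 scale, and the code set as used here has no reference probe against which that shift could be set. After each sample was centred on its median 18 features were higher and 15 lower, after centring on the mean log2 value 18 and 22, and after quantile normalization 18 and 13. Values of the named snoRNAs that passed the test are therefore also given relative to the median of 0.34, here or below. Relative to it Snora41, Snora75, Snora30 and Snora62 stood at 0.76, 0.70, 0.58 and 0.36 log2 units. The lower ones Snora78, Snora74a, Snora47, Snora26, Snora73a and Snora2b stood at −1.29, −1.26, −1.2, −1.10, −0.94 and −0.77.

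Snora36b, a guide of 18S ribosomal RNA encoded in Rab3gap2, a gene for a subunit of a Rab GTPase regulator, was the most different snoRNA. It held 282, 298 and 323 normalized counts in NIH3T3 and 2035, 1474 and 1430 in RAW264.7. All macrophage samples were far above all fibroblast samples, and sample 1 was the highest. The rise was 5.39-fold (log2 difference 2.43 ± 0.15 SE, n = 3 per line, limma adjusted p 1.6e-05), and 2.09 log2 units above the median of all features. Under quantile normalization, where it was smallest, the log2 difference was 1.53.

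Other snoRNAs on the 18S list also rose. Snora5c, encoded in Tbrg4, a gene for a mitochondrial RNA-binding protein, held 11592, 11393 and 12879 normalized counts in NIH3T3 and 26741, 24206 and 22396 in RAW264.7. The lines were far apart, with a rise of 2.04-fold (1.03 ± 0.11, limma adjusted p 0.00023). Snora15, encoded in the chaperonin gene Cct6a, rose 1.56-fold, from 14675 ± 1267 to 22793 ± 901 normalized counts (SD, n = 3). Snora70, encoded in the ribosomal protein gene Rpl10, rose 1.46-fold, from 32056 ± 1476 to 46984 ± 2576. Relative to the median feature these 3 were higher by 0.69, 0.29 and 0.21 log2 units, and Snora70 did not pass after median or mean centring (limma adjusted p 0.10 and 0.075; 0.00068 to 0.10 over all alternatives).

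Snora41, encoded in Eef1b2, was the called named snoRNA that stood furthest apart in RAW264.7 sample 1. It held 1563, 1828 and 1953 normalized counts in NIH3T3 and 7450, 2987 and 2492 in RAW264.7. The lines did not overlap, but macrophage sample 1 was far above the other 2. The log2 difference was 1.10 ± 0.37 (limma adjusted p 0.036) with that sample and 0.62 without it (limma adjusted p 0.00014). In the fit without it, adjusted p followed the size of the log2 difference alone and does not reflect a feature's own spread. Snora52, also at 0.62 there, had the same adjusted p. Snora41 did not pass under any of the 3 rescalings (limma adjusted p 0.068 to 0.13) or when any 1 NIH3T3 sample was left out, and passed in 8 of 16 alternatives (limma adjusted p 2.3e-05 to 0.13).

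The 18S list had 8 measured members of 21. Of these 5 were higher, 0 lower, and 3 did not pass, and 2 of the 5 (Snora41 and Snora5c) have an uncertain target. Their median log2 difference was 0.59, against 0.34 over all features and with 44.8% of all features higher. The 3 that did not pass were Snora24 (−0.40), Snora28 (0.03) and Snora44 (0.25). Median centring gave 3 higher and 2 lower (a median of 0.29), the lower ones being Snora24 and Snora28, and quantile normalization gave 4 and 0. Without RAW264.7 sample 1 the list had the same counts, 5 and 0. Snora24, encoded in Snhg8, had 102447, 110746 and 121116 normalized counts in NIH3T3 and 62625, 99366 and 96281 in RAW264.7. All macrophage samples were below all fibroblast samples, with sample 1 far below the other 2, and the difference did not pass (95% interval −0.83 to 0.03, limma adjusted p 0.10). It passed after median and mean centring (−0.71 and −0.72), and over all alternatives its limma adjusted p ran from 0.014 to 0.84.

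**Figure D2:**
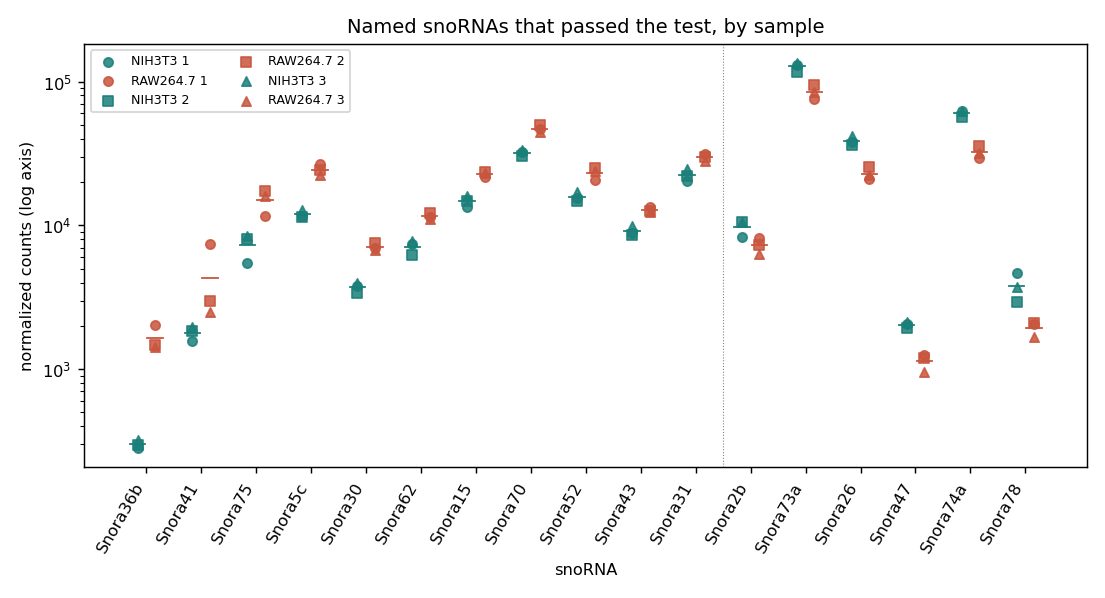
Normalized counts (log axis) of the 17 named snoRNAs that passed the test, one marker per sample and a line at each mean, NIH3T3 left and RAW264.7 right in each pair. The 11 left of the dotted line were higher in RAW264.7, led by Snora36b with a 5.39-fold rise, and the 6 right of it were lower, with no overlap between lines in any of the 17.

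Guides of 28S ribosomal RNA moved both ways. Of 21 measured members of 28 listed, 6 were higher, 3 lower, and 12 did not pass, and the list's median stood at 0.01 on the log2 scale. Among the 67 features 44.8% were higher and 11.9% lower, with a median of 0.34. Snora30, encoded in Srcap, a chromatin remodeller gene, rose 1.90-fold, from 3772, 3403 and 4003 normalized counts in NIH3T3 to 6914, 7546 and 6749 in RAW264.7 (0.93 ± 0.11, limma adjusted p 0.00027). The samples of each line lay close together and far from the other line. Under quantile normalization it did not pass (0.46, limma adjusted p 0.062, against 1.4e-08 to 0.016 in the other alternatives).

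Snora75, encoded in the gene of nucleolin, a major nucleolar protein, had 5448, 7996 and 8425 normalized counts in NIH3T3 and 11670, 17225 and 16039 in RAW264.7. Sample 1 was the lowest of its line in both. The rise was 2.06-fold (1.04 ± 0.21, limma adjusted p 0.0031), and it did not pass under quantile normalization (limma adjusted p 0.10) or with all 22 samples in the fit (limma adjusted p 0.25), the latter being the highest over its alternatives. Snora62 (E2), encoded in Rpsa, a gene of the small ribosomal subunit, rose 1.63-fold, from 7115 ± 770 to 11566 ± 586 normalized counts, and passed under every alternative run. Snora52 (host Rplp2), Snora43 (host Snhg7) and Snora31 (host Tpt1) rose by 0.54, 0.49 and 0.42 log2 units. These last 3 exceeded the median feature by 0.20, 0.14 and 0.08, and none of these 3 passed after median centring, mean centring or quantile normalization (limma adjusted p 0.058 to 0.81).

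Snora26, encoded in the non-coding gene Dancr, was the 28S guide with the clearest decrease besides Snora74a. It held 38170, 36439 and 41489 normalized counts in NIH3T3 and 20839, 25555 and 22330 in RAW264.7, which is 1.69-fold lower (−0.76 ± 0.12, limma adjusted p 0.00095). Snora2b, encoded in Kansl2, a gene for a subunit of a histone acetyltransferase complex, was 1.34-fold lower, from 9776 ± 1304 to 7277 ± 955. Its highest macrophage sample (8202) was just under its lowest fibroblast sample (8271), and it passed in 10 of 16 alternatives (limma adjusted p 0.00081 to 0.23). After median centring the 28S list had 3 members higher and 5 lower, after mean centring 3 and 10, and after quantile normalization 1 and 8. Without RAW264.7 sample 1 it had 6 and 6.

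On the list of precursor processing, 2 of 4 snoRNAs were measured, and both were lower in RAW264.7 (11.9% of all features were). The list is short and may lack other snoRNAs with such a part. Snora62 (E2), higher in RAW264.7, was not on it. Snora74a (U19), encoded in Snhg4, had 62744, 56550 and 62735 normalized counts in NIH3T3 and 29382, 35438 and 31911 in RAW264.7. The lines were far apart, with a 1.89-fold decrease (−0.91 ± 0.11, limma adjusted p 0.00033). Snora73a (U17), whose yeast counterpart is needed for early cleavage steps toward 18S ribosomal RNA and which is encoded in Snhg3, had 131357, 117120 and 134060 against 75140, 94666 and 84892. It was 1.51-fold lower (−0.59 ± 0.12, limma adjusted p 0.0035), but not past the threshold under quantile normalization (−0.11, limma adjusted p 0.15, the highest over its alternatives). Its share of all signal was 8.83% to 9.91% in NIH3T3 and 5.25% to 6.17% in RAW264.7. A near-identical copy, Snora73b, lies beside it in the genome, and the probe may count both.

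Snora47 and Snora78 are on no target list and were lower in RAW264.7. Snora47, encoded in the zinc-finger gene Zbed3, held 2052, 1947 and 2113 normalized counts in NIH3T3 and 1258, 1186 and 954 in RAW264.7, a 1.81-fold decrease (−0.86 ± 0.13, limma adjusted p 0.00093). Snora78, which the reference table places inside Rps2 and inside Snhg9, had 4665, 2952 and 3712 against 2050, 2082 and 1679. Its fibroblast samples were widely spread and still all above the macrophage samples, with a 1.92-fold decrease (−0.94 ± 0.18, limma adjusted p 0.0024). Snora78, Snora74a, Snora47 and Snora26 passed under every alternative run.

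**Figure D3:**
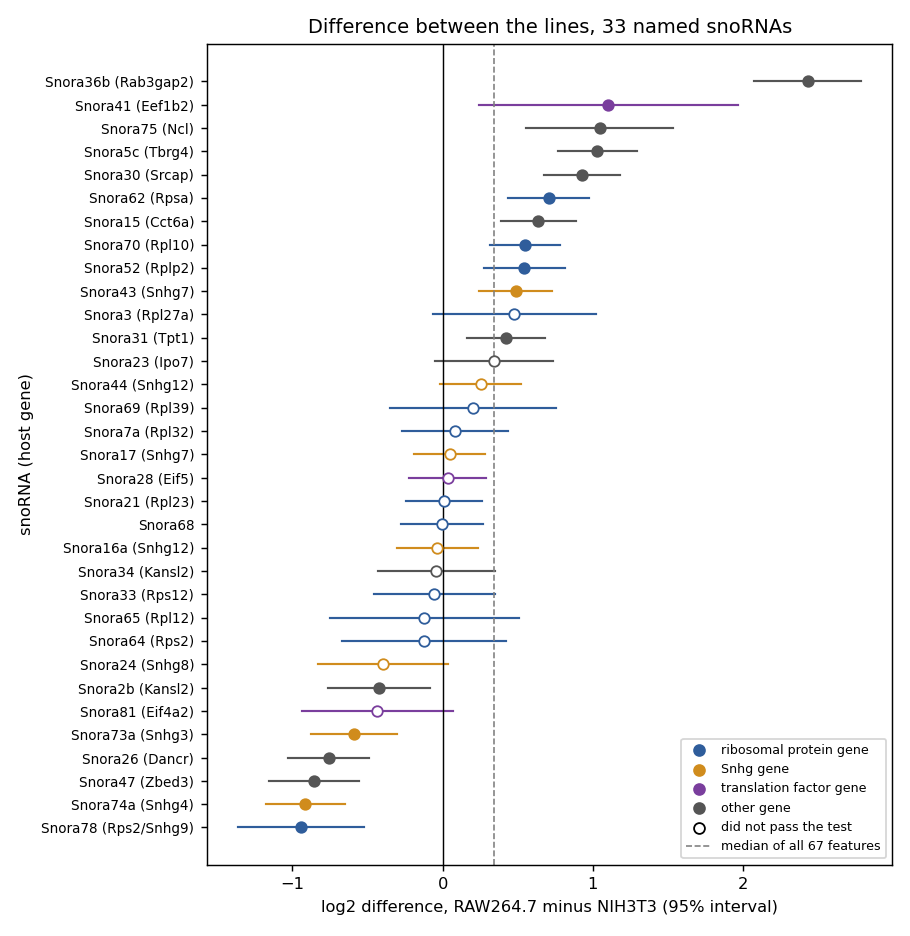
Log2 difference between the lines (RAW264.7 minus NIH3T3) with its 95% interval for the 33 named snoRNAs, host gene in brackets (not shown for 1) and colour by host class. Filled points passed the test (11 higher, 6 lower), open points did not, and the dashed line is the median of all 67 features at 0.34; Snora78 lies in an Snhg gene as well.

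Several snoRNAs with high signal were near the same level in both lines as deposited. Snora21 (host Rpl23) had a log2 difference of 0.01 with a 95% interval from −0.24 to 0.26, and Snora28, encoded in the initiation factor gene Eif5, had 0.03 (−0.22 to 0.29). Snora16a (host Snhg12) held 71254 ± 5163 normalized counts in NIH3T3 and 69699 ± 6890 in RAW264.7, a difference of −0.03 (−0.31 to 0.24). Snora17 (host Snhg7) had 0.05 (−0.19 to 0.28). Relative to the median of all features, these 4 stood at −0.38 to −0.30 log2 units. After mean centring all 4 passed as lower in RAW264.7 (limma adjusted p 0.026 to 0.045).

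For other members the replicates did not settle a direction. Snora64, encoded in Rps2, had 3766, 3739 and 4323 normalized counts in NIH3T3 and 5348, 3224 and 2717 in RAW264.7. Macrophage sample 1 lay above all fibroblast samples and the other 2 below them (−0.13, 95% interval −0.67 to 0.42). Without sample 1 the difference was −0.41 (limma adjusted p 0.012; up to 0.92 over all alternatives), and Snora65 (host Rpl12) likewise went from −0.12 to −0.43 (limma adjusted p 0.0082; up to 0.94). In the fit without sample 1, adjusted p followed the size of the log2 difference alone, so it does not reflect each feature's own spread. Snora81, encoded in the initiation factor gene Eif4a2, had 14026, 21566 and 11887 normalized counts in RAW264.7 against 20797 ± 2293 in NIH3T3 (−0.43, limma adjusted p 0.12; 0.0069 to 0.55 over all alternatives). Sample 2 was the high one: the difference was −0.37 without sample 1 (limma adjusted p 0.023), −0.68 without sample 2 (limma adjusted p 0.0083) and −0.25 without sample 3 (limma adjusted p 0.31). Snora3 (0.48), Snora69 (0.20), a guide of the short ribosomal RNA that the large subunit holds beside 28S, and Snora33 (−0.06) had sample 1 as the highest of their line and did not pass. Snora3 stood at 0.18 without that sample and at 0.64 without sample 3 (limma adjusted p 0.28 and 0.029). Without RAW264.7 sample 1, 45 features passed, 31 higher and 14 lower, and they included 37 of the 38. Snora7a (0.08) and Snora34 (−0.04) did not pass, nor did Snora23 (0.34), which held only 66.1 to 116.5 normalized counts in the 6 samples.

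By host class, the 8 snoRNAs of Snhg genes had 1 member higher (Snora43) and 3 lower (Snora73a, Snora74a and Snora78), with a median log2 difference of −0.22 (the same counts and −0.07 without RAW264.7 sample 1). The 12 of ribosomal protein genes had 3 higher (Snora62, Snora70 and Snora52) and 1 lower (Snora78, counted in both classes), with a median of 0.05. Without RAW264.7 sample 1 that class had 3 higher and 3 lower, and its median was −0.02. Hosts were assigned by position without regard to strand, so Snora78 may belong to the Snhg class only. Of the 3 in translation factor genes 1 was higher (Snora41). Without that sample 1 was higher and 1 lower (Snora81). The 11 in other genes had 6 higher and 3 lower, with a median of 0.42. Classes follow the symbol of the host, so the 3 lower include Snora26 of the non-coding gene Dancr. Over all features 44.8% were higher and 11.9% lower, with a median of 0.34. After mean centring the Snhg class had 0 higher and 6 lower, the ribosomal protein class 1 and 4, the translation factor class 0 and 2 and the other hosts 5 and 4, so the class medians of ribosomal protein and translation factor hosts fell below 0 (−0.28 and −0.29).

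The host genes Rps2, Snhg7, Snhg12 and Kansl2 each hold a pair of measured snoRNAs in the reference table. Shown for these hosts are the 20 bases before and the first 10 bases of the transcript (capitals) at the start listed by RefSeq in GRCm38.p6, given to show the start that a pair has in common if both come from that host, which is not settled for Snora78 in Rps2; no build is named for the study's own probes.
Rps2, chr17:24720043-24720072, plus strand: tgcgtaggcagtcgagatctCGCGCTTCTT
Snhg7, chr2:26640235-26640264, minus strand: gtggcgtggagatgctcggcCTCTCGGCAG
Snhg12, chr4:132308658-132308687, plus strand: gtgcaggccgttctcagtccTTTCTCGCTT
Kansl2, chr15:98534260-98534289, minus strand: aggcggagcagccagagggcAAGCTGCGCG
Snhg7 and Snhg12 open with a run of 5 and 6 pyrimidines (C or T), Rps2 with 1 and Kansl2 with 0. Such a run of at least 5 was present at the listed start of 6 of 27 hosts with a start sequence, and at 4.44% of all 32851 listed mouse starts. The 8 measured snoRNAs of these 6 hosts (Ipo7, Rpl27a, Rplp2, Snhg12, Snhg7 and Snhg8) had 2 members higher in RAW264.7 and 0 lower, where 44.8% and 11.9% of all features were. Listed starts can miss the true start by some bases.

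The ratio of both snoRNAs of a pair within a sample does not depend on a single scaling factor per sample. It can change under quantile normalization, where the log2 differences of Snora43 and Snora17 were 0.03 and −0.0037. In Rps2, Snora64 over Snora78 had log2 ratios of −0.31, 0.34 and 0.22 in NIH3T3 and 1.38, 0.63 and 0.69 in RAW264.7. All macrophage samples were above all fibroblast samples, with a difference of 0.82, or 0.58 without RAW264.7 sample 1. In Snhg7, Snora43 over Snora17 had −1.86, −1.99 and −1.90 against −1.40, −1.54 and −1.49, a difference of 0.44 with tight groups (SD 0.07 in each). In Kansl2, Snora34 over Snora2b had 0.22, 0.26 and 0.27 against 0.72, 0.55 and 0.62, a difference of 0.38. In Snhg12, Snora16a over Snora44 overlapped between lines and differed by −0.29. The first 3 reached the smallest p of an exact two-sided permutation test with 3 against 3 samples (p = 0.1, or 0.13 adjusted over the 4 pairs), and Snhg12 had p = 0.2, so none could pass 0.05 in this design. Snora78 may also come from Snhg9, which the reference table places on the opposite strand to Rps2. Hosts were assigned by position alone, and the strand of Snora78 was not compared with either gene. Snora64 and Snora78 may therefore not share a host.

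**Figure D4:**
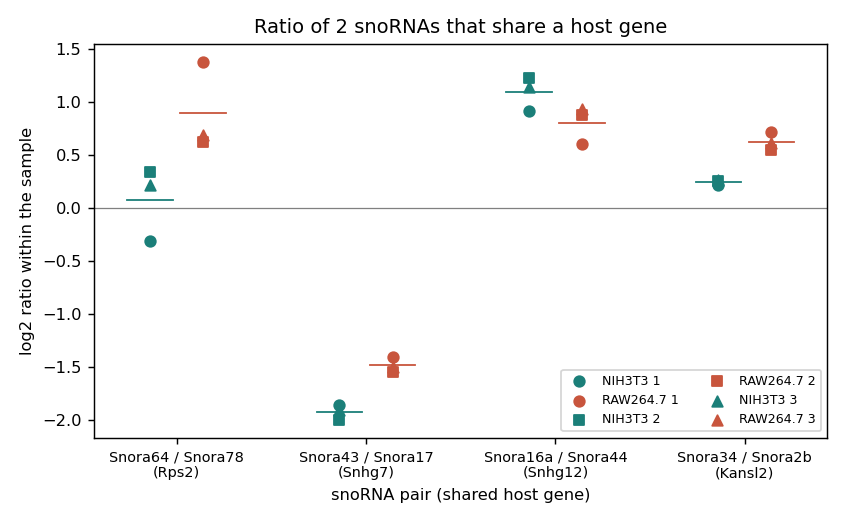
Log2 ratio of both snoRNAs of a host gene within each sample, for 4 host genes, with a line at each group mean. The lines do not overlap for Rps2, Snhg7 and Kansl2 and overlap for Snhg12. Hosts are by position alone, and Rps2 is not settled as the host of Snora78.

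Set beside the other groups of the series, the lines differed in where each snoRNA was unusual. Of the 38 features that differed, the mean in spermatogonial stem cells, which lie in the same part of the table, fell between both lines in 12, above both in 11 and below both in 15. Snora36b had 799 ± 94 normalized counts in spermatogonial stem cells (n = 4). It had 294 ± 58 in embryonic stem cells at day 0 and 387 ± 141 in cardiomyocytes at day 16 (n = 3 each). In sets A and B it had 276 ± 39 and 991 ± 246 (n = 3 each). Its NIH3T3 level of 301 was thus near the lowest groups, and its RAW264.7 level of 1646 was the highest group mean. For Snora74a NIH3T3 had the highest (60676) and RAW264.7 the lowest (32244) of the 7 group means. Snora30 was higher in spermatogonial stem cells (13914 ± 2635) than in either line. Among the 38, RAW264.7 had the highest mean of the 7 groups in 12 features, named ones being Snora36b, Snora5c and Snora70, and the lowest in 3, named ones being Snora78 and Snora74a. NIH3T3 had the highest in 3 (Snora47, Snora74a and Snora2b) and the lowest in 3, of which Snora75 and Snora41 have a symbol. These ranks are descriptions, and by single samples several overlap another group. Snora5c was at 24447.5 ± 2182.5 in RAW264.7 and 23656.8 ± 2385.4 in spermatogonial stem cells. Snora74a in RAW264.7 (29382 to 35438) overlapped spermatogonial stem cells (30549 to 43776). In NIH3T3 it overlapped embryonic stem cells at day 0. Snora2b, Snora75 and Snora41 in NIH3T3 also overlapped other groups. Snora36b, Snora70 and Snora78 in RAW264.7 and Snora47 in NIH3T3 overlapped none. The 12 samples of embryonic stem cells and cardiomyocytes lie in a part of the table that holds values for the 5 blank features, and it is unknown here whether both parts were normalized together.

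**Figure D5:**
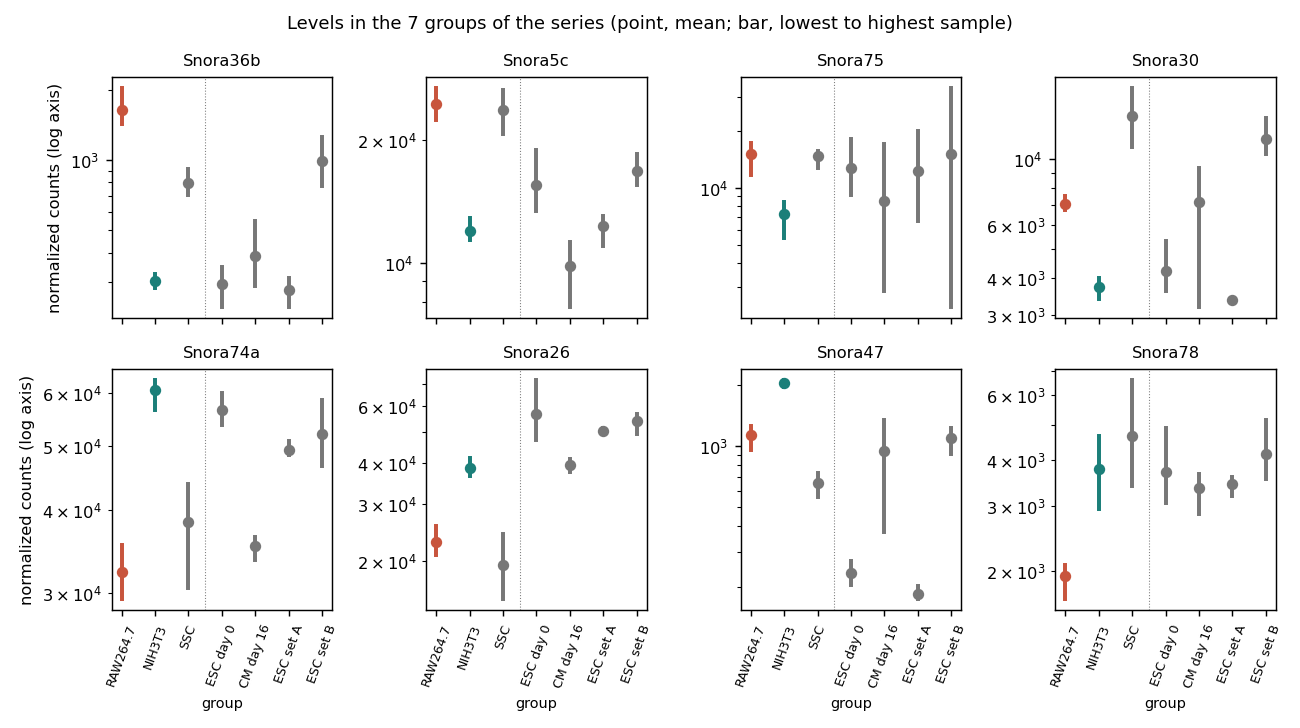
Normalized counts (log axis, own scale per panel) of 8 named snoRNAs in the 7 groups of the series; points are means and bars run from the lowest to the highest sample, and groups right of the dotted line lie in the other part of the table. RAW264.7 holds the highest mean for Snora36b and Snora5c and the lowest for Snora74a and Snora78, and NIH3T3 the highest for Snora74a and Snora47. For Snora5c and Snora74a these bars overlap those of other groups.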

How the data were processed

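The authors deposited 1 table of non-negative signal values from an nCounter code set; their normalization, background handling and reference probes are not given in the sources used. Within each of the 6 samples 100% of the 67 values could be written as a whole number times a factor of that sample (tolerance 0.02). On log2(value + 1), limma 3.58.1 (R 4.3.3; lmFit and eBayes, default two-sided tests) was fitted to the 6 samples, with Benjamini-Hochberg adjustment over 67 features and a threshold of 0.05. Single values used exact permutation tests. Whether replicates were separate cultures is not stated, and p-values therefore reflect the spread among these samples only, possibly a technical one. No replicate pair was close enough to be 1 library deposited again (chi-square per degree of freedom at least 18.3). Counting error is small for most features, though less so for Snora23. The fit was tested on simulated data. Named were the features with a symbol, through role lists, shared hosts and the largest or smallest differences, and the 2 largest rises and falls without a symbol. Members and lists were chosen with earlier results of these data known. Symbols, hosts and start sequences came from RefSeq tables of GRCm38.p6, matched by unversioned accession for 34 of 72 features. Hosts were assigned by position alone, without regard to strand. Probes may capture near-identical copies. Alternatives were other scalings, a pseudocount of 10, a filter on low means, other fits and leaving out each sample. The host gene of 1 snoRNA is not reported here.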

Additional observations from a re-analysis of the deposited data

How the results depend on the processing

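With 38 features called (30 higher, 8 lower in RAW264.7), a pseudocount of 10, a filter on a mean of at least 100, whole counts without the sample factor, a prior variance with a trend and a fit with 10 samples gave 37 to 39 calls. Median centring gave 18 higher and 15 lower, mean centring 18 and 22, quantile normalization 18 and 13, and all 22 samples in the fit gave 25 calls, 18 higher and 7 lower. Of the 38, 26, 26, 24 and 25 were called again, all in the same direction. Leaving out 1 sample gave 34 to 45 calls, 26 to 33 higher and 7 to 14 lower, with 45 without RAW264.7 replicate 1. In the fit without that replicate, adjusted p followed the size of the log2 difference alone. Its calls therefore do not reflect each feature's own spread. Same-numbered samples did not deviate together (correlations −0.20, −0.23 and −0.11), and the main fit used no pairs. With 3 samples per line this cannot exclude that same-numbered samples were handled together. A replicate block gave 31 calls, 24 higher and 7 lower, and there too adjusted p followed the size of the difference alone. Total signal kept its ratio at 1.06 to 1.08 and did not pass. Leaving out 1 sample gave ratio differences of 0.58 to 0.95 for Rps2, 0.40 to 0.47 for Snhg7, −0.38 to −0.19 for Snhg12 and 0.34 to 0.42 for Kansl2. The 3 planned count tests, edgeR with and without TMM factors and DESeq2, were not run, since the values are normalized and the whole counts behind them were inferred; those counts were tested with limma alone.

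Among the named snoRNAs, sign changes befell some with log2 differences from −0.13 (Snora64) to 0.25 (Snora44). Centring shifts all features of a sample alike, so each centring lowered all log2 differences by the same amount. Under median centring Snora21, Snora28, Snora17, Snora7a, Snora69 and Snora44 went to −0.30, −0.27, −0.26, −0.22, −0.11 and −0.054 (Snora44), under mean centring to −0.31, −0.29, −0.28, −0.24, −0.12 and −0.069 (Snora44), and under quantile normalization the first 5 to −0.30, −0.17, −0.0037, −0.23 and −0.13. Of these Snora28 passed in both centrings, Snora21 in mean centring and quantile normalization, and Snora17 in mean centring. Leaving out 1 sample at a time changed the sign of some and called none of these with the changed sign. The log2 differences then ran from −0.41 to 0.078 for Snora64, −0.43 to 0.15 for Snora65, −0.24 to 0.075 for Snora33, −0.18 to 0.064 for Snora34, −0.10 to 0.045 for Snora16a, −0.089 to 0.050 for Snora68, −0.048 to 0.071 for Snora21, −0.040 to 0.10 for Snora28, −0.0062 to 0.10 for Snora17, −0.041 to 0.21 for Snora7a and −0.040 to 0.37 for Snora69. The cause of the changes on leaving out a sample was not tested. With 3 samples per line the number of samples, not the counts, limits the precision of most features. Counting error weighs more for Snora23, with 66.1 to 116.5 normalized counts.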
